A study of Mus musculus with 8 samples.

Results

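The genes described here are 10 genes of insulin, FoxO and nutrient sensing, taken by name as Insr, Igf1r, Irs1, Irs2, Foxo1, Foxo3, Txnip, Ddit4, Sesn1 and Sesn3. Each symbol was matched through GENCODE to 1 Ensembl ID of the counts table, so that all 10 were found among 55414 IDs. They were measured in RNA of Paneth cells sorted by FACS from mouse small intestine. The 4 TG libraries came from transgenic mice in which Paneth cells express diphtheria toxin, labelled DT TG, and the 4 WT libraries from wild type mice. The study describes the TG cells as those purified after depletion of mature Paneth cells, and its datasets as holding males and females. The sources used here give neither the promoter that drives the toxin, nor the age of the mice, nor the sex behind each library. The study describes its sorted samples as taken from individual mice, but the labels do not tie each library to a mouse, so the p-values measure the spread between these libraries.

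Insulin and the insulin-like growth factors bind the receptor tyrosine kinases encoded by Insr and Igf1r, which pass the signal through the adaptor proteins Irs1 and Irs2 to PI3-kinase and the kinase AKT. AKT phosphorylates the transcription factors Foxo1 and Foxo3 and so keeps them out of the nucleus, and in cells with little insulin signal these factors switch on genes of fasting and stress. Txnip binds thioredoxin and curbs glucose uptake, and its gene is switched on by glucose. Ddit4 (REDD1) and the sestrins Sesn1 and Sesn3 hold back mTORC1, the kinase complex that drives growth when nutrients are plentiful. In the crypt, Paneth cells are known to pass nutrient signals to the neighbouring stem cells through mTORC1.

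The promoters of 2 of these genes are shown, although neither gene was called. Txnip was the most abundant of the 10 genes, and Sesn1 had the smallest p of the 10 for a difference in response between 2 kinds of library, described with the comparison. Each sequence holds the 250 bases before the start of the canonical GENCODE transcript, read 5′ to 3′ on the strand of the gene from GRCm39. Capitals mark letters searched as the FoxO core (TGTTTAC or TTGTTT), the insulin response element (TGTTTTG), the E-box (CACGTG) or the pair of a carbohydrate response element (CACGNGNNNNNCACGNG), each on both strands.
Txnip (chr3:96465017-96465266, plus strand): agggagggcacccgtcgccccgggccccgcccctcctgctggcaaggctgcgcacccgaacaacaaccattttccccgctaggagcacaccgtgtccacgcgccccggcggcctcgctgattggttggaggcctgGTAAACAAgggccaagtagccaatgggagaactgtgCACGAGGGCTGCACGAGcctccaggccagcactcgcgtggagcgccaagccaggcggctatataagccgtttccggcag
Sesn1 (chr10:41763185-41763434, plus strand): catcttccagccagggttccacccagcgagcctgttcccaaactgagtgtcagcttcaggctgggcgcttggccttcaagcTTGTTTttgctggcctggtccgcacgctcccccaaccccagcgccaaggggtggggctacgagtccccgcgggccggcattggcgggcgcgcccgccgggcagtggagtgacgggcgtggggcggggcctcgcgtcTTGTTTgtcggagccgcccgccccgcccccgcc

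In the Txnip promoter the letters TGTTTAC stood on the minus strand at positions -115 to -109 from the start, and overlapped a match of TTGTTT at -113 to -108. The pair of the carbohydrate response element stood at -79 to -63. TGTTTAC occurred in 2.72% of 21770 promoters of protein-coding genes, and among the 10 genes only in that of Txnip. The pair occurred in 0.0505% of all promoters, and among the 10 again only in that of Txnip. The shorter TTGTTT occurred in 4 of the 10, those of Igf1r, Irs1, Txnip and Sesn1, and in 19.4% of all. Sesn1 held it at -169 to -164 and at -33 to -28, before a canonical start that lies inside the annotated span of the gene. TGTTTTG and CACGTG were in none of the 10, against 6.13% and 6.26% of all, and at such shares 10 promoters are too few to show a lack. The GC content of the 10 promoters was 56.0 to 80.8%, against a median of 53.2% over all promoters. The part of this in the matches was not tested. A match is a match of letters, and no binding was measured.

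Total counts ranged from 13107397 to 16218434 per library. Paneth cell markers were abundant, with 12 genes that summed to 374899 to 460527 CPM (counts scaled by TMM factors to a common library size) in TG and to 355739 to 536419 CPM in WT. Of these 12, 10 had fitted values below 0 in TG, and Mptx2, Mmp7 and Ang4 were called lower, at 0.393, 0.664 and 0.672 of the WT level. Of 9 stromal markers, 2 had no count in any library and the sum was at most 0.893 CPM, and of 10 immune markers 3 had no count and 1 passed the filter. The 12 enterocyte markers summed to 526 to 693 CPM in TG and to 356 to 458 CPM in WT, with no overlap, and all 12 had fitted changes above 0, of which 5 were called higher in TG and none lower. Over all genes tested, 8.26% were called higher and 9.65% lower. The median log2 fold change of the 12 enterocyte markers was 1.58, and that of Alpi, a brush border phosphatase, 2.56. Alpi was low, at 2.60 to 6.69 CPM in TG and 0.320 to 1.79 CPM in WT. Anpep, which was not called, made up 53.6 to 82.6% of the sum in a library. Without Anpep, a sum chosen after the values were seen, the other 11 held 152 to 288 CPM in TG and 76.4 to 134 CPM in WT. Their part in the results below was not tested. The libraries were of 2 kinds, since replicates 1 and 2 of TG and of WT lacked counts of Y-linked genes and replicates 3 and 4 held 897 to 1564 of them.

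All 10 genes passed the low-count filter. To compare levels between genes, CPM was divided by exon length in kilobases. In WT, Txnip was the highest at 68.7 ± 16.5 CPM per kilobase, followed by Ddit4 at 20.0 ± 1.27 (SD, n = 4 each). Irs2 was next at 5.09 ± 1.80 CPM per kilobase, then Insr at 3.04 ± 0.453 and Foxo3 at 2.95 ± 0.379 (SD, n = 4 each). The WT ranges of Irs2 and Insr overlapped, as did those of Insr and Foxo3. Sesn3, Sesn1 and Foxo1 followed at 1.99, 1.97 and 1.85 CPM per kilobase with overlapping ranges. Igf1r lay lower at 1.01 ± 0.221, and Irs1 lowest at 0.153 ± 0.0376 CPM per kilobase (SD, n = 4 each). The IGF1 receptor and Irs1 thus had less RNA per length than the insulin receptor and Irs2 in these cells, and their WT ranges did not overlap. In TG the order was the same but for Sesn1 and Sesn3, which changed places with overlapping ranges.

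**Figure D1:**
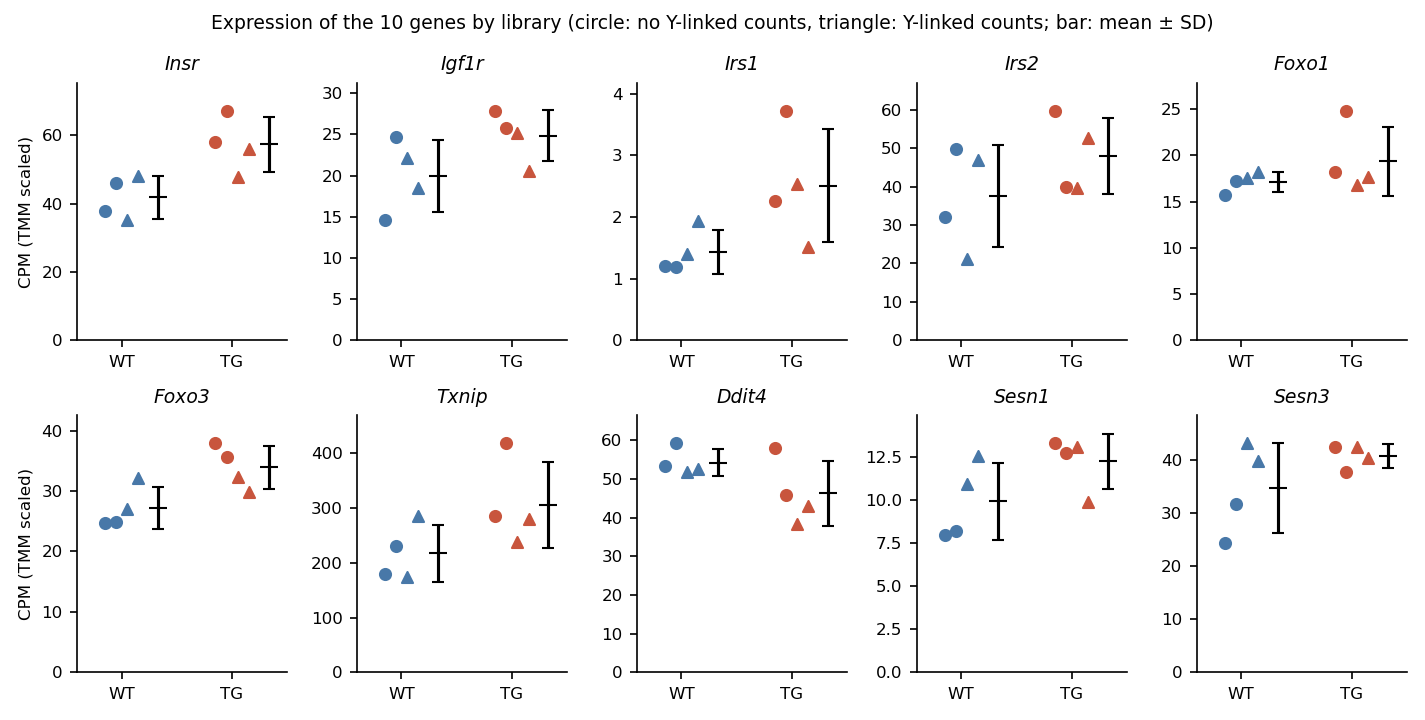
CPM after TMM scaling (vertical axes, linear from 0) of each of the 10 genes in the 4 WT and 4 TG libraries, with circles for libraries without and triangles for libraries with Y-linked counts, and the mean ± SD beside them. The groups overlap for every gene, and the highest Txnip value, 419 CPM, is in TG replicate 2.

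TG was compared with WT to learn which RNA levels differ in the cells purified from mice whose Paneth cells make the toxin. Fitted levels were higher in TG for 9 of the 10 genes, with a median log2 fold change of 0.32, against 0.01 over all 11929 genes tested. Of all genes tested, 51.3% had a fold change above 0. Only Insr passed the threshold of an edgeR adjusted p below 0.05. One gene in 10 called higher stands beside 8.26% called higher among all genes tested, and no gene called lower beside 9.65%, or 17.9% in either direction. By unadjusted p, 4 of the 10 were below 0.05, against 33.1% of all genes. The groups overlapped in CPM for all 10 genes, whereas they stood apart for 22.0% of all genes. In bulk RNA, a change in the share of a cell type and a change in RNA per cell cannot be told apart.

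Among the receptors, Insr (ENSMUSG00000005534, chr8:3172061-3329647, minus strand) had 58.1, 67.3, 47.9 and 56.1 CPM in TG replicates 1 to 4, and 37.7, 46.2, 35.3 and 48.1 CPM in WT replicates 1 to 4. The values of 3 TG libraries lay above all WT values, and TG replicate 3 lay just under WT replicate 4. The level rose 1.37-fold in TG, or by 0.45 ± 0.12 (SE) on the log2 scale (edgeR adjusted p = 0.0197). The call was lost without TG replicate 1, TG replicate 2 or WT replicate 1, with edgeR adjusted p of 0.0546, 0.0729 and 0.0503. Insr ranked 1152nd by p among the 11929 genes.

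Igf1r (ENSMUSG00000005533, chr7:67601518-67883416, plus strand) had 27.9, 25.8, 25.1 and 20.5 CPM in TG and 14.6, 24.7, 22.2 and 18.5 CPM in WT. TG replicates 1 to 3 were above the highest WT value by a small margin. Igf1r was not called, at a fitted log2 difference of 0.31 ± 0.15 (SE; edgeR adjusted p = 0.152), which became 0.19 without WT replicate 1 and 0.17 with an offset on GC content and length. Insrr, the insulin receptor-related receptor, was called higher, with 71.0 ± 20.1 CPM in TG against 35.3 ± 8.92 CPM for WT (SD, n = 4 each), and is named outside the rule for named genes as a receptor of the same family. The ligand genes Ins1, Ins2, Igf1 and Igf2 had no count in any library.

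Of the adaptors, Irs1 (ENSMUSG00000055980, chr1:82210822-82269338, minus strand) was a low gene, with 15 to 53 counts per library. It had 2.25, 3.73, 2.54 and 1.52 CPM in TG and 1.20, 1.18, 1.41 and 1.93 CPM in WT. The values of 3 TG libraries exceeded all WT values, and TG replicate 4 lay within the WT range. The fitted log2 difference of 0.81 ± 0.30 (SE) missed the threshold (edgeR adjusted p = 0.0768). Without TG replicate 4 it was 0.98 and called higher (edgeR adjusted p = 0.0376), and without TG replicate 2 it was 0.57 (edgeR adjusted p = 0.273). In the libraries without Y-linked counts it was 1.31 ± 0.42 (SE) and in those with them 0.31 ± 0.41 (SE), called in neither. Irs2 (ENSMUSG00000038894, chr8:11034681-11059499, minus strand) had 59.9, 40.0, 39.8 and 52.7 CPM in TG and 32.1, 49.7, 21.3 and 46.9 CPM in WT. The WT values themselves spread more than 2-fold, and the log2 difference was 0.36 ± 0.28 (SE; edgeR adjusted p = 0.410), and 0.16 without WT replicate 3.

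Of the FoxO factors, Foxo3 (ENSMUSG00000048756, chr10:42057837-42154007, minus strand) had 38.0, 35.6, 32.3 and 29.9 CPM in TG and 24.8, 24.9, 27.0 and 32.2 CPM in WT. TG replicate 4 fell below the highest WT value, and the other TG values were above it. The log2 difference of 0.32 ± 0.11 (SE) lay just outside the threshold by edgeR (adjusted p = 0.0524) and just inside it by DESeq2 (adjusted p = 0.0483). With an offset on GC content and length it was 0.21 (edgeR adjusted p = 0.184). Foxo1 (ENSMUSG00000044167, chr3:52175757-52260642, plus strand) had 18.1, 24.8, 16.8 and 17.6 CPM in TG and 15.7, 17.2, 17.5 and 18.2 CPM in WT. Only TG replicate 2 stood above the WT range. Foxo1 was not called (log2 difference 0.17 ± 0.13 SE, edgeR adjusted p = 0.362), and without TG replicate 2 the difference was 0.03 (edgeR adjusted p = 0.892).

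Txnip (ENSMUSG00000038393, chr3:96465267-96469201, plus strand) took 43.0 to 58.8% of the summed CPM of the 10 genes in a library. It had 286, 419, 239 and 280 CPM in TG and 179, 231, 174 and 286 CPM in WT. TG replicate 2 stood alone above the WT range, and WT replicate 4 was level with TG replicate 1. Txnip was not called by edgeR, at 0.49 ± 0.20 (SE) on the log2 scale (adjusted p = 0.119), whereas DESeq2 called it higher (adjusted p = 0.0374). By edgeR it was called higher only in other settings, such as with no filter on low counts (adjusted p = 0.00170) and without WT replicate 4 (adjusted p = 0.0382). Without TG replicate 2 the value dropped to 0.30 (edgeR adjusted p = 0.266). The antisense gene Gm15441 at this locus had 20 counts over all libraries against 30432 for Txnip.

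Of the mTORC1 inhibitors, Ddit4 (ENSMUSG00000020108, chr10:59785491-59788492, minus strand) was the single gene with a fitted value below 0. It had 58.1, 45.9, 38.5 and 43.0 CPM in TG and 53.4, 59.4, 51.8 and 52.6 CPM in WT. Replicates 2 to 4 of TG lay below all WT values, and TG replicate 1 within their range. Its log2 difference of -0.23 ± 0.11 (SE) was not called (edgeR adjusted p = 0.176). Without TG replicate 1 it was -0.35 and called lower (edgeR adjusted p = 0.0450), and without TG replicate 3 it was -0.15 (edgeR adjusted p = 0.413).

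Sesn1 (ENSMUSG00000038332, chr10:41685931-41784423, plus strand) had 13.3, 12.7, 13.1 and 9.88 CPM in TG and 7.99, 8.22, 10.9 and 12.6 CPM in WT. WT replicates 3 and 4 were higher than WT replicates 1 and 2, and overlapped TG. The log2 difference was 0.31 ± 0.16 (SE; edgeR adjusted p = 0.194). Cep57l1, on the opposite strand, overlaps the start of the Sesn1 span and had 415 counts over all libraries against 1306 for Sesn1. Sesn3 (ENSMUSG00000032009, chr9:14186363-14244397, plus strand) had 42.5, 37.9, 42.5 and 40.4 CPM in TG and 24.4, 31.7, 43.3 and 39.9 CPM in WT. Its 4 TG values lay close together, all within the WT range. Sesn3 was not called (log2 difference 0.23 ± 0.15 SE, edgeR adjusted p = 0.294). The difference was 0.09 without WT replicate 1, 0.35 without WT replicate 3 and 0.12 with the GC and length offset. Sesn2, a sestrin that senses leucine, is named outside the rule as their paralog and was not called either (0.42 ± 0.19 SE on the log2 scale, edgeR adjusted p = 0.144).

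The same few libraries held the extremes for many of the genes. Of the 4 TG libraries, replicate 1 held the highest value for 6 of the 10 genes and replicate 2 for the other 4. Replicates 3 and 4 of TG held the lowest TG value for 5 and 4 genes. Of the 4 WT libraries, replicate 4 held the highest value for 6 genes, and replicates 1 and 3 the lowest for 5 and 4. The same was not counted over all genes. The summed CPM of the 10 genes was 604, 713, 497 and 551 in TG replicates 1 to 4 and 391, 494, 405 and 557 in WT replicates 1 to 4. The summed enterocyte markers had 526, 537, 579 and 693 CPM in TG and 439, 399, 356 and 458 CPM in WT, and without Anpep 152, 183, 269 and 288 CPM in TG and 76.4, 79.1, 101 and 134 CPM in WT. Without Anpep, replicates 3 and 4 were higher than replicates 1 and 2 in both groups, and the part of this in the values of the 10 genes was not tested.

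**Figure D2:**
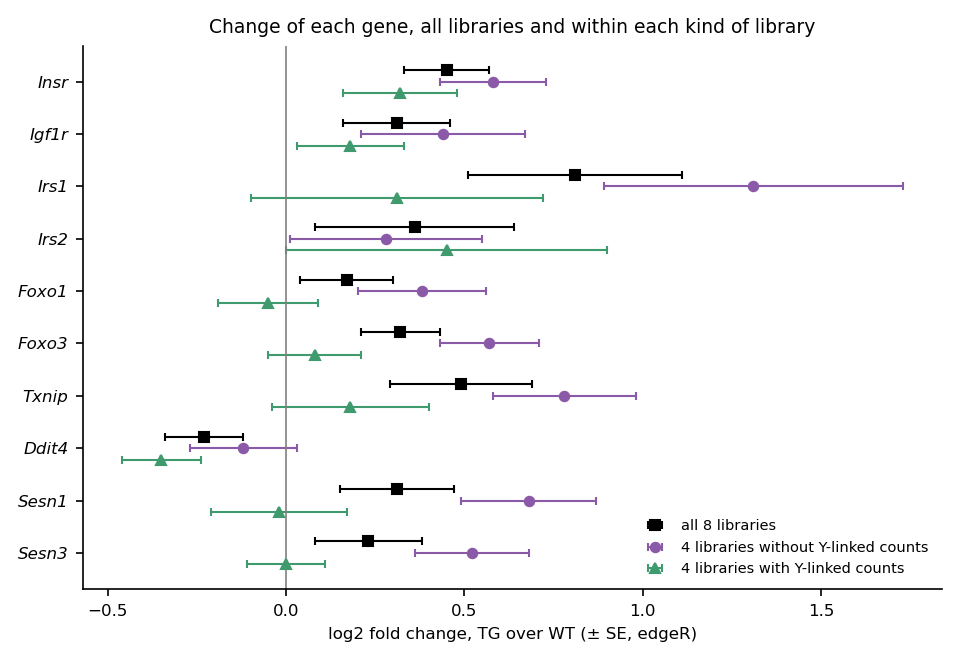
Log2 fold change of TG over WT (horizontal axis, ± SE) for each gene, fitted by edgeR in all 8 libraries (squares), in the 4 without Y-linked counts (circles) and in the 4 with them (triangles). For Sesn1 the circle is at 0.68 and the triangle at -0.02, and for Irs2 alone the triangle lies to the right of the circle.

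Because the 2 kinds of library divide both groups evenly, the change was also fitted within each kind. In the libraries without Y-linked counts, replicates 1 and 2, the median log2 fold change of the 10 genes was 0.54 (0.02 over all genes), and 9 were above 0. There edgeR called 4 of the 10 genes, all higher in TG, beside 9.44% of all genes tested in that fit. They were Insr, Foxo3, Txnip and Sesn1, with log2 fold changes of 0.58 ± 0.15, 0.57 ± 0.14, 0.78 ± 0.20 and 0.68 ± 0.19 (SE) and edgeR adjusted p of 0.0327, 0.0274, 0.0445 and 0.0444. In the libraries with Y-linked counts, replicates 3 and 4, the median was 0.13 (0.00 over all genes), and edgeR called 0 of the 10 beside 1.80% of all genes, with 1 gene, Ddit4, at an unadjusted p below 0.05.

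The fold change was higher in the libraries without Y-linked counts for 9 of the 10 genes, against 49.3% of all genes tested. The difference itself was tested by an interaction term, and none of the 10 was called, as for all but 0.0251% of genes. For Sesn1 the change was smaller by 0.71 ± 0.26 (SE) on the log2 scale in the libraries with Y-linked counts, with an interaction p of 0.0183 and an edgeR adjusted p of 0.765. For Foxo3 and Sesn3 the differences were -0.50 ± 0.18 and -0.52 ± 0.20 (SE), both with an edgeR adjusted p above 0.7. These 3 of the 10 genes had an unadjusted interaction p below 0.05, against 5.73% of all genes. In WT alone, Sesn1 had 7.99 and 8.22 CPM in the libraries without and 10.9 and 12.6 CPM in those with Y-linked counts, whereas in TG it had 13.3 and 12.7 against 13.1 and 9.88 CPM. Replicate number and Y-linked counts divide the libraries in the same way and cannot be told apart.

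The 10 genes hold 4 pairs of paralogs, and the log2 ratio within a pair was compared between the groups to ask whether the members of a pair changed unequally. The log2 ratio of Insr to Igf1r was 1.20 ± 0.25 for TG and 1.08 ± 0.35 for WT (SD, n = 4 each). The difference of 0.12 was smaller than that spread (exact permutation p = 0.486, two-sided, and 0.762 adjusted over the 4 pairs). The log2 ratio of Irs1 to Irs2 was -4.23 ± 0.73 for TG and -4.53 ± 0.59 for WT (SD, n = 4 each; exact permutation p = 0.571). That of Foxo1 to Foxo3 was -0.82 ± 0.24 and -0.66 ± 0.12 (SD, n = 4 each; exact permutation p = 0.314). That of Sesn1 to Sesn3 was -1.73 ± 0.20 and -1.79 ± 0.19 (SD, n = 4 each; exact permutation p = 0.857). No pair passed the threshold, and the adjusted p of the last 3 were 0.762, 0.762 and 0.857. With 4 against 4 libraries the smallest unadjusted p such a test can give is 0.0286, so that after adjustment over the 4 pairs neither 1 nor 2 pairs alone could pass, and the missed threshold says little about the pairs. Insr was called and Igf1r was not, and this test gave no difference between their changes beyond the replicate spread.

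**Figure D3:**
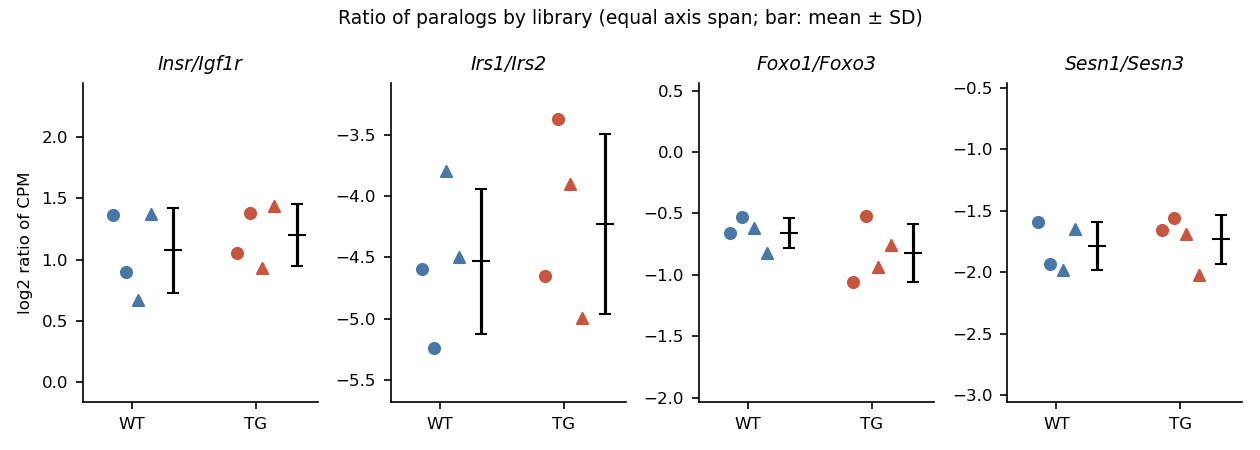
Log2 ratio of the CPM of the first to the second gene of each of 4 pairs of paralogs (vertical axes, equal span) in WT and TG libraries, with circles for libraries without and triangles for libraries with Y-linked counts, and the mean ± SD beside them. The groups overlap in every pair.

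The genes whose pattern was most like that of Insr over the 8 libraries, by Pearson r of log2 CPM, were Kif1b and Fhad1os1, both with r = 0.986. Kif1b, a kinesin motor, had 154 ± 17.3 CPM in TG and 119 ± 17.7 CPM for WT (SD, n = 4 each), and Fhad1os1, an antisense transcript, 1.68 ± 0.609 and 0.795 ± 0.286 CPM. These libraries share the group difference and the scaling, so that r describes likeness in these samples only.

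Other genes of the same pathways were read from 7 lists, of which 154 genes were tested. Together 30 were called higher and 16 lower in TG, or 29.9%, beside 17.9% of all genes. Without TG replicate 2 the counts were 16 and 8, and in the libraries with Y-linked counts alone 2 and 0. In the insulin and IGF signalling list, 28 of 43 genes were tested, 5 were called higher and 4 lower, or 32.1%, and the median log2 fold change was 0.04. Pik3r1, the main regulatory subunit of PI3-kinase, had 100, 94.3, 91.0 and 94.4 CPM in TG and 38.2, 53.9, 59.2 and 58.1 CPM in WT. The groups stood well apart, and the level rose by 0.86 ± 0.12 (SE) on the log2 scale (edgeR adjusted p = 0.000751). The adaptor Gab1 and the kinase Sgk1 rose too, by log2 fold changes of 0.56 and 1.29. The kinase Akt2 fell from 51.1 ± 5.07 to 35.7 ± 1.60 CPM (SD, n = 4 each), or by 0.52 ± 0.09 (SE) on the log2 scale (edgeR adjusted p = 0.00224). Pik3r3, another regulatory subunit, and the pseudokinase Trib1 fell by 0.87 and 0.38 on the log2 scale. Akt2, Pik3r3 and Trib1 lost their calls when libraries were scaled by total counts alone and in 2, 2 and 3 of 21 alternative fits in all, with adjusted p up to 0.0825, 0.291 and 0.176.

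In the list of FoxO factors and known FoxO targets, 27 of 30 genes were tested, 9 were called higher and 1 lower, or 37.0% beside 17.9% of all genes, and the median log2 fold change was 0.22. Rbl2, a pocket protein that restrains the cell cycle, rose from 32.0 ± 3.19 to 46.1 ± 4.24 CPM, and Fbxo32 (atrogin-1), a ubiquitin ligase of muscle wasting, from 4.12 ± 0.729 to 8.17 ± 2.17 CPM (SD, n = 4 each). Rictor, the defining subunit of mTORC2 and also in the mTORC1 list, had a log2 fold change of 0.54 ± 0.11 (SE). Cited2, a transcriptional coregulator, was the gene called lower, at -0.57 ± 0.15 (SE) on the log2 scale (edgeR adjusted p = 0.0216), and lost its call in 3 of 21 alternative fits, that with total counts among them. Outside the rule and chosen after their values were seen, Pdk4, which blocks glucose oxidation, and Pck1, of gluconeogenesis, were also called. Pdk4 had 21.3, 24.6, 1.24 and 12.6 CPM in TG and 0.320, 0.139, 0.00 and 0.372 CPM in WT, and TG replicate 3 was far below the other TG libraries. Pck1 rose from 13.9 ± 4.39 to 34.7 ± 8.75 CPM (SD, n = 4 each). Pck1 and Pdk4 are also known as genes of other cell types and other regulators, and the enterocyte markers moved with TG as given above. The part of either in these calls was not tested. The study describes its sorted Paneth cells as almost free of other cells.

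In the mTORC1 and amino acid sensing list, 45 of 48 genes were tested, 7 were called higher and 3 lower, or 22.2%, and the median log2 fold change was 0.08. Flcn and Fnip2, of the folliculin complex that acts on the Rag GTPases, rose by log2 fold changes of 0.52 and 0.67. Sec13, Lamtor1 and Rraga fell by 0.40, 0.37 and 0.27 on the log2 scale, but lost their calls in 5, 6 and 11 of 21 alternative fits, with adjusted p up to 0.281, 0.623 and 0.418. Mtor itself, named outside the rule, was at 0.08 ± 0.08 (SE) on the log2 scale (edgeR adjusted p = 0.545). In the AMPK and LKB1 list, 19 of 21 genes were tested, 3 were called higher and none lower, or 15.8%, below the 17.9% of all genes, and the median log2 fold change was 0.18. The genes called were Ppargc1a, a coactivator of mitochondrial genes, Acacb, a carboxylase that AMPK inhibits, and the deacetylase Sirt1, with log2 fold changes of 1.14, 1.07 and 0.44. The calls of Ppargc1a, Acacb and Sirt1 were lost in 2, 3 and 8 of 21 alternative fits, with adjusted p up to 0.143, 0.345 and 0.611. Acacb had 3.22 CPM in TG replicate 3, within the WT range of 2.72 to 3.57 CPM.

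The list that holds Txnip's nearest genes covers glucose sensing by Mondo factors, arrestin domain genes, the thioredoxin system, and glucose uptake and use. Of 18 genes tested, 2 were called higher and 7 lower, beside 8.26% and 9.65% of all genes, while 8 fitted values were above 0 and 10 below, and the median log2 fold change was -0.16. When libraries were scaled by total counts alone, 2 genes over all lists were called lower, Hk2 and Slc2a1, in place of 16. None of the 4 arrestin domain genes was called. Of the 7 lower calls, 3 were of the thioredoxin system, the thioredoxins Txn1 and Txn2 and the reductase Txnrd1, which are named outside the rule after their values were seen and fell by 0.37, 0.37 and 0.38 on the log2 scale. Txnrd2, the other reductase of the list, was not called, at 0.04 ± 0.15 (SE) on the log2 scale (edgeR adjusted p = 0.879). Hk2, a hexokinase, fell from 52.9 ± 4.51 to 31.9 ± 4.75 CPM, and Slc2a1 (GLUT1), a glucose transporter, from 24.7 ± 3.69 to 13.3 ± 2.97 CPM (SD, n = 4 each). Mlx, the partner of both Mondo factors, fell by 0.45 on the log2 scale, while Mlxip (MondoA) and the fructose kinase Khk rose by log2 fold changes of 0.46 and 0.53. The calls of Mlx, Mlxip and Khk were lost in 2, 1 and 4 of 21 alternative fits, with adjusted p up to 0.229, 0.145 and 0.186. Arrdc4, the arrestin domain gene that glucose switches on together with Txnip, is named outside the rule and was not called, with 24.6 ± 3.87 CPM in TG and 29.4 ± 6.32 CPM for WT (SD, n = 4 each; edgeR adjusted p = 0.256). In the glucocorticoid list, 11 of 12 genes were tested, 4 were called higher and 1 lower, or 45.5% beside 17.9% of all genes. Sgk1, Nr3c1, Mt1 and, named outside the rule, Tsc22d3 were called higher and Cebpd lower. The other genes tested there, Fkbp5, Per1, Klf9, Dusp1, Mt2 and Cdkn1a, are named outside the rule and were not called. In the hypoxia list, 12 of 14 were tested, Ndrg1 and Pdk1 were called higher and Slc2a1 lower, or 25.0%. Nr3c1, the glucocorticoid receptor, rose from 26.1 ± 2.33 to 35.1 ± 5.77 CPM, and Ndrg1, a gene of hypoxia and differentiation, from 130 ± 11.2 to 181 ± 26.2 CPM (SD, n = 4 each). The metallothionein Mt1 and the kinase Pdk1 rose by 0.50 and 0.33 on the log2 scale, and Cebpd, a transcription factor, fell by 1.03. These calls were lost in 8, 11 and 7 of 21 alternative fits, and that of Nr3c1 in 6, with adjusted p up to 0.393, 0.275, 0.580 and 0.552. Ddit4 is a known target of both of these responses.

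**Figure D4:**
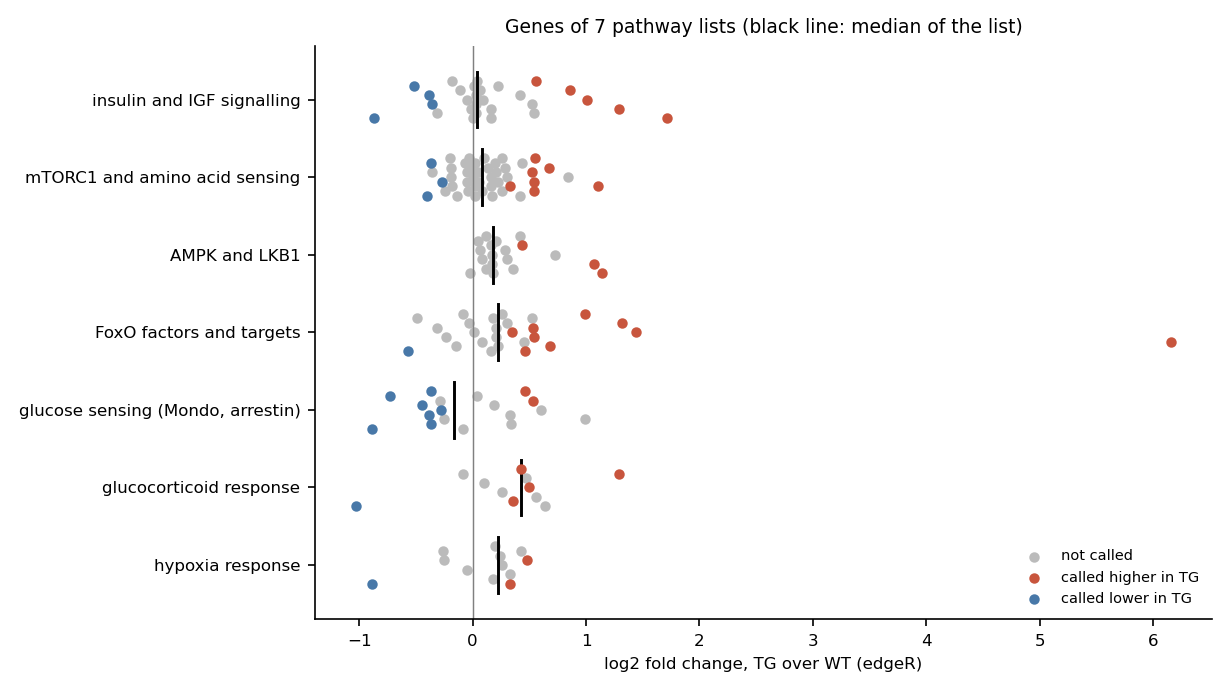
Log2 fold change of TG over WT (horizontal axis) of each tested gene in 7 pathway lists (rows), with genes called higher in red, called lower in blue and not called in grey, and a black line at the median of each list. The medians run from -0.16 in the glucose sensing list to 0.43 in the glucocorticoid list, and the point at 6.16 is Pdk4.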

How the data were processed

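RNA from Paneth cells, sorted from the small intestine, had been sequenced with a stranded, poly(A)-selecting kit. The authors deposited whole-number counts per Ensembl gene for 8 libraries; the submitters' processing notes name FastQC 0.12.0, STAR 2.7.0a, DESeq2 and the build mm39. How reads were counted, and whether by strand, is not given in the sources used here, so an overlapping antisense gene cannot be told apart. Symbols, positions and exon lengths came from GENCODE M39 on GRCm39, the same assembly as mm39, and 54749 IDs matched.

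Counts were tested with edgeR 4.0.16 in R 4.3.3 (robust quasi-likelihood, TMM factors, the default filter by group, Benjamini-Hochberg over all 11929 genes tested, threshold 0.05), with the group as the only term. Standard errors were derived from the quasi-likelihood F statistic. The 10 genes, the lists, the motifs and the tests were chosen with earlier results of these data known. The text names the 10 genes, the 3 genes of smallest p called in each direction per list, and the 2 genes most like a called gene, and says where others are named. One gene and 1 promoter are not reported here. The lists cover insulin and IGF signalling, mTORC1 and amino acid sensing, AMPK and LKB1, FoxO factors and targets, glucose sensing, glucocorticoid and hypoxia responses, and markers of 8 cell types. Goblet and tuft markers had no call of 8 and 6 tested, enteroendocrine markers 1 lower of 5, stem and progenitor markers 2 higher and 1 lower of 8, and Paneth markers 3 lower of 12. These counts stand beside 17.9% called in either direction over all genes tested.

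Ratios of paralogs were log2 CPM differences with a prior count of 2, compared by exact two-sided permutation over 70 assignments. Alternatives were DESeq2 1.42.0, voom in limma 3.58.1, other scalings and filters, a replicate block, a term for Y-linked counts, an offset on GC content and length, and each library left out. The edgeR fits were first tried on simulated counts.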

Additional observations from a re-analysis of the deposited data

Results flagged for a closer look

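Among 28 groups of 4 libraries examined, the 10 genes in each group and the 4 ratios, 1 library stood apart, where chance gives about 1.4. For Foxo1, TG replicate 2 stood at 24.8 CPM while replicates 1, 3 and 4 held between 16.8 and 18.1 CPM, a gap of 0.829 of the whole TG range. TG replicate 2 also held the highest TG values of Insr, Irs1 and Txnip, and the cause was not tested.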

How the results depend on the processing

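Insr rose in every alternative fit, with log2 fold changes of 0.32 to 0.58, and lost its call in 4 of 21, the libraries with Y-linked counts alone (edgeR adjusted p 0.320) and those without TG replicate 1, TG replicate 2 or WT replicate 1. The number of the 10 genes called higher, 1 in the report, was 3 with no filter and 3 with DESeq2 (Insr, Foxo3 and Txnip in both), 4 in the libraries without Y-linked counts and 0 in those with them. With the replicate block it was 2 (Insr and Txnip, the latter with an edgeR adjusted p of 0.0235), and also 2 when an offset on GC content and length went with the block. With each library left out in turn, 0 to 3 were called higher and 0 to 1 lower, the latter Ddit4 without TG replicate 1. The median log2 fold change, 0.32, was 0.54 without and 0.13 with Y-linked counts in the libraries, and in the latter Foxo1 was at -0.05 and Sesn1 at -0.02. When libraries were scaled by total counts alone, the median of all genes moved from 0.01 to 0.12, all 10 genes kept their sign, and Ddit4 was at -0.12.

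Of the pathway genes, 30 higher and 16 lower, the libraries with Y-linked counts called 2 and 0, and total counts called 2 lower. With each library left out in turn, 16 to 31 were higher and 8 to 16 lower. It was without TG replicate 2 that 16 were higher, and without either TG replicate 1 or 2 that 8 were lower. The causes were not tested. The interaction with Y-linked counts called 0 of the 10 genes under the 3 other settings. It also called 0 without each library in turn, where 1 library stands alone and is assumed to vary like the others, so that this shows nothing of stability.

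The difference in log2 ratio of Irs1 to Irs2 became -0.30 and that of Sesn1 to Sesn3 -0.04 in the libraries with Y-linked counts, against 0.90 and 0.15 in those without. Leaving out 1 library gave -0.01 to 0.22 for Insr to Igf1r, 0.02 to 0.56 for Irs1 to Irs2, -0.26 to -0.08 for Foxo1 to Foxo3 and -0.01 to 0.15 for Sesn1 to Sesn3. Same-numbered libraries deviated together at r of 0.0762, 0.0666, 0.286 and 0.231 across genes, not all above 0.1, so that the numbers were not taken to pair the libraries. A block on them gave a difference of 0.12 for Insr to Igf1r, with a smallest possible sign-flip p of 0.125, which cannot pass. Irs1, at 15 to 53 counts per library, is the gene most limited by depth.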
